A study of Mus musculus with 14 samples.

Results

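Lipoprotein receptors and lipid carriers were followed through 10 genes of the whole fetal mouse brain: the receptors Lrp1, Lrp8, Vldlr and Sorl1, the lipase Lpl, the lipid exporter Abca1, the secreted carriers Apoe and Apod, and the cytosolic carriers Fabp5 and Fabp7. They were found by gene symbol among the 41934 genes of the deposited tables, and each symbol stood on 1 row. RNA was sequenced in 2 batches from whole brains of individual male C57BL/6J fetuses. At E13.5 there were 4 libraries of Dio3+/+ fetuses and 2 of Dio3-/- fetuses, while E18.5 had 3 of the former and 5 of the latter. Dio3 encodes the type 3 deiodinase, which clears thyroid hormones, and the Dio3-/- fetuses came from matings of heterozygous mice and carry point mutations that inactivate the enzyme while its mRNA is still made.

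The values analysed here were the authors' mean normalized counts, 1 per gene and age, each averaged over all libraries of that age. A mean therefore pools both genotypes, with Dio3-/- libraries making up 33.3% of the libraries at E13.5 and 62.5% at E18.5. Values of single libraries and the difference between the genotypes were not analysed here, so that no error, interval or test stands beside a level, and age, genotype mix and sequencing batch cannot be told apart. The means were scaled to a total of 1000000 within each age (CPM), since their totals differed (2.86e+07 at E13.5 and 2.46e+07 at E18.5), and the level of a gene is given below as its CPM per kilobase of annotated exon. The targeted gene itself, Dio3, had a mean normalized count of 99.0 at E13.5 and 129 at E18.5. By qPCR, the paper reported a decrease of Dio3 between these ages in wild-type brains, and more Dio3 mRNA in Dio3-/- brains. The pooled means of Dio3 therefore do not give its course with age.

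Brain lipids travel between cells in small lipoprotein particles that are built around apolipoprotein E and filled by transporters such as ABCA1. Receptors of the LDL receptor family take the particles up, and a pair of them, VLDLR and the APOE receptor LRP8, also receive the Reelin signal that guides migrating neurons. Inside cells, fatty acid binding proteins carry fatty acids through the cytosol, and FABP7 is a long-used marker of radial glia, the progenitors of the developing brain.

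Among the members, Apoe and Apod showed the largest fold differences between the ages and Fabp7 the highest level, and the bases just before their first exons are therefore shown, 5′ to 3′ in the direction of the gene (RefSeq, GRCm38.p6). They lie at chr7:19699189-19699438 on the minus strand for Apoe, at chr16:31314809-31315058 on the minus strand for Apod, and at chr10:57784673-57784880 on the plus strand for Fabp7, and none of these bases is annotated as exon. Capitals mark matches on either strand to 5 short motifs, none of them overlapping here. One is TATAAA, the core of the element that places the start of many genes. Another is GGGCGG, to which the common activator Sp1 binds. CCAAT is an element of many promoters, bound by the factor NF-Y among others. The E-box, here as CACGTG, is read by helix-loop-helix proteins. The last, AGGTCA, is the half-site of many nuclear receptors, those for thyroid hormone included.
Apoe: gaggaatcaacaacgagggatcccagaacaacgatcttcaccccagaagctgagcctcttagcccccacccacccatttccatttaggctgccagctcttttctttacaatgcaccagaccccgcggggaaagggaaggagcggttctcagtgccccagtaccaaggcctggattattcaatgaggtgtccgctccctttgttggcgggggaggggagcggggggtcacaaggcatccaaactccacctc
Apod: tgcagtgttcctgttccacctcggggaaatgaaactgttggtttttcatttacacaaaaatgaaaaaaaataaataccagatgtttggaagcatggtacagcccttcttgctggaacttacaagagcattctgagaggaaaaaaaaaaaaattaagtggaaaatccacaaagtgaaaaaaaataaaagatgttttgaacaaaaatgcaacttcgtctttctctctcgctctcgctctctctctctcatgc
Fabp7: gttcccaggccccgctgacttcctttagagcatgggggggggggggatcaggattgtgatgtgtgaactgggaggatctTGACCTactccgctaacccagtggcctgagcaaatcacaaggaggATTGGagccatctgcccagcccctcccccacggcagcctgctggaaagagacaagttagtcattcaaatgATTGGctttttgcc
Apoe and Apod held none of these letters in the 250 bases. The Fabp7 stretch, which is 208 bases long because an exon begins there, held AGGTCA on the opposite strand once and CCAAT on the opposite strand 2 times. Of all 32851 promoter stretches of 250 bases, 14.0% held AGGTCA and 33.8% held CCAAT. Among the 8 members with a promoter entry, Fabp7 alone held AGGTCA, and none held 2 copies of it in direct repeat with 4 bases between them, which stood in 0.0152% of all stretches. The Apod stretch was poor in G and C (36.4%), against 57.2% in Apoe. A match or its absence describes these letters only.

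With a minimum of 10 for the mean normalized count, all 10 members passed at both ages, and all 10 were higher in CPM at E18.5 than at E13.5. Over the 17794 genes with a mean of at least 10 at both ages, 45.6% were higher at E18.5. The median difference of the members was 0.53 on the log2 scale, against -0.07 over all these genes. Apoe and Apod were at least 2-fold higher at E18.5, as were 11.1% of all genes. Lrp1 had the smallest difference of the members, 0.10 on the log2 scale, and with the deposited means left unscaled it was -0.12, so that its direction depended on the scaling.

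**Figure D1:**
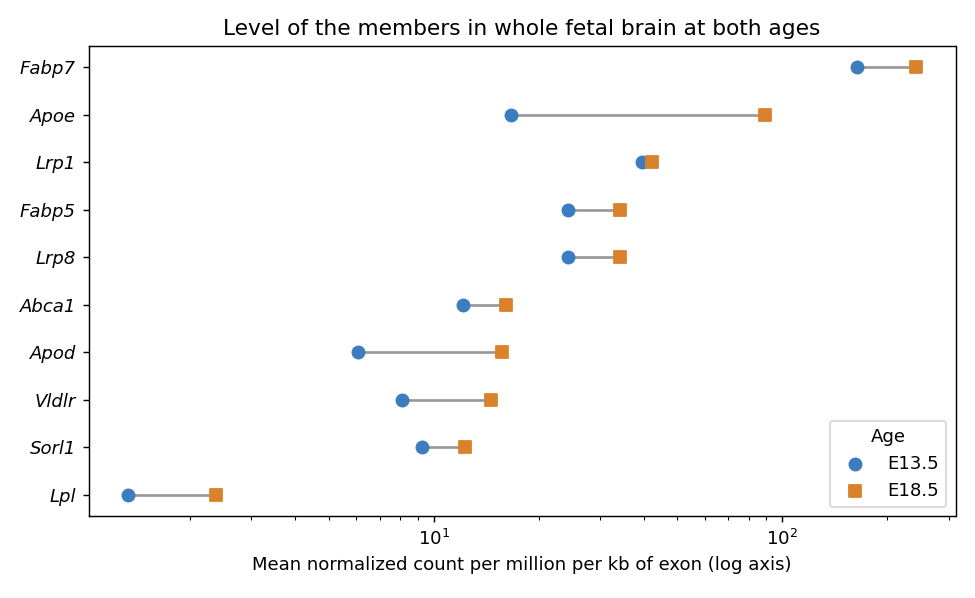
Level of each member as CPM per kilobase of exon (log axis) at E13.5 (circles) and E18.5 (squares), 1 authors' mean per age with no error available. Fabp7 is highest and Lpl lowest at both ages, and Apoe is at 16.6 at E13.5 and 89.1 at E18.5.

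Fabp7 had the highest level of the members at both ages. The gene (ENSMUSG00000019874.11) lies on chromosome 10 of GRCm38 from 57784881 to 57788450. The mean normalized count of Fabp7 was 5848 at E13.5 and 7425 at E18.5. Its level was 164 CPM per kilobase at E13.5 and 242 at E18.5, at percentile 99.5 and 99.7 of the genes with a mean of at least 10. Fabp7 thus stood among the most abundant mRNAs per length of the whole brain at both ages, and its level was 1.48-fold higher at the later one.

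Fabp5, which encodes an epidermal type of fatty acid binding protein also made in neural cells, was the other cytosolic carrier (ENSMUSG00000027533.10, chromosome 3 from 10012548 to 10016607). Its mean normalized count was 2476 at E13.5 and 3003 at E18.5, and its level was 24.3 and 34.3 CPM per kilobase. Fabp7 exceeded it 6.74-fold at E13.5 and 7.06-fold at E18.5 by level, so that the ratio of both carriers was much alike at the ages. Transcripts of 5 annotated processed pseudogenes matched Fabp5 over at least 200 bases with at least 90% identity, the closest at 98.3%. Reads that fit such copies equally well are left out by default in this kind of counting, and the level of Fabp5 is uncertain.

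The other fatty acid binding proteins were far lower than this pair. Fabp3, the heart type, had a mean normalized count of 87.1 at E13.5 and 178 at E18.5, and its level was 3.70 and 8.80 CPM per kilobase. Fabp4, the adipocyte type, had mean counts of 2.84 and 10.4. Fabp1, Fabp2, Fabp6 and Fabp12 had means under 10 at both ages, and Fabp9 and Pmp2 were listed at 0.

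Apoe, the main apolipoprotein of brain lipoproteins (ENSMUSG00000002985.16, chromosome 7 from 19696109 to 19699188), had the largest fold difference of the members between the ages. Its mean normalized count was 1016 at E13.5 and 4677 at E18.5. Its level was 16.6 CPM per kilobase at E13.5 and 89.1 at E18.5, a 5.36-fold difference (2.42 on the log2 scale) that ranked above that of 98.6% of all genes. By level, Apoe ranked 5 among the 10 members at E13.5 and 2 at E18.5, where it stood above Lrp1, Fabp5 and Lrp8. Of the summed level of the 10 members, Apoe made up 5.45% at E13.5 and 17.7% at E18.5.

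Apod encodes apolipoprotein D, a lipocalin that carries small hydrophobic molecules (ENSMUSG00000022548.14, chromosome 16 from 31296192 to 31314808). Apod had a mean normalized count of 446 at E13.5 and 997 at E18.5. The level was 6.05 and 15.7 CPM per kilobase, 2.60-fold higher at E18.5 and 1.38 on the log2 scale. Apoe exceeded Apod 2.75-fold at E13.5 and 5.66-fold at E18.5 by level, so that the gap between both secreted carriers was wider at the later age.

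Abca1 encodes the transporter that moves cholesterol and phospholipid out of cells onto apolipoproteins (ENSMUSG00000015243.4, chromosome 4 from 53030787 to 53159895). Its mean normalized count was 3594 at E13.5 and 4110 at E18.5, and its level was 12.1 and 16.1 CPM per kilobase, 1.33-fold higher at E18.5. Apoe was 1.37-fold above Abca1 by level at E13.5 and 5.52-fold above it at E18.5. The pathway gene with the most similar pair of levels was Abca2, a related transporter, at 11.1 and 16.2 CPM per kilobase (distance 0.13 on the log2 scale over the 2 ages).

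Lpl encodes lipoprotein lipase, which releases fatty acids from lipoproteins (ENSMUSG00000015568.16, chromosome 8 from 68880491 to 68907448), and it was the lowest member at both ages. Lpl had a mean normalized count of 398 at E13.5 and 612 at E18.5. Its level was 1.33 and 2.38 CPM per kilobase, 1.79-fold higher at E18.5, at percentile 33.0 and 42.4 of the genes with a mean of at least 10. By qPCR, the paper reported Lpl as up-regulated in Dio3-/- brains at E18.5, the age with the larger share of Dio3-/- libraries. The part of genotype in the fold of Lpl was not tested. The exons annotated to Lpl span 10478 bases in all, while its longest transcript has 4115 bases. With the latter as length, the level of Lpl was 3.38 at E13.5 and 6.05 at E18.5, still the lowest of the members. Parts of its exons matched transcripts of 6 other genes with up to 91.2% identity. Gpihbp1, which anchors the lipase on capillary endothelium, had means under 10 at both ages (2.91 and 7.25).

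Lrp1, a large endocytic receptor for APOE and many other ligands (ENSMUSG00000040249.15, chromosome 10 from 127538161 to 127621148), had the highest mean normalized count of the members, 19987 at E13.5 and 18435 at E18.5. Its level was 39.5 and 42.4 CPM per kilobase, and by this length it was the highest of the 4 receptors at both ages. At percentile 95.3 and 95.8, Lrp1 stood in the top 10% of genes by level at both ages.

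Lrp8 and Vldlr, the Reelin receptors, differed in level. Lrp8 (ENSMUSG00000028613.15, chromosome 4 from 107802261 to 107876840) had a mean normalized count of 7278 at E13.5 and 8821 at E18.5, and its level was 24.2 and 34.2 CPM per kilobase. Vldlr (ENSMUSG00000024924.14, chromosome 19 from 27216484 to 27254231) had a mean normalized count of 2331 at E13.5 and 3612 at E18.5, and its level was 8.10 and 14.6. Lrp8 was thus 2.99-fold above Vldlr at E13.5 and 2.34-fold above it at E18.5. The fold between the ages was 1.41 for Lrp8 and 1.80 for Vldlr.

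Sorl1 encodes SORLA, a sorting receptor that directs cargo such as the amyloid precursor protein between endosomes and the Golgi (ENSMUSG00000049313.8, chromosome 9 from 41964720 to 42124297). Sorl1 had a mean normalized count of 2988 at E13.5 and 3416 at E18.5. The level was 9.23 and 12.3 CPM per kilobase, 1.33-fold higher at E18.5. Sorl1, like Lpl, was reported by the paper as up-regulated in Dio3-/- brains at E18.5, and the part of genotype in this fold was not tested. An antisense gene shares 185 exon bases with Sorl1, which is 1.63% of its exons, and it had mean counts of only 6.07 and 7.46. No other member shares exon bases with another gene.

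The order of the levels at E13.5 was Fabp7, Lrp1, Fabp5, Lrp8, Apoe, Abca1, Sorl1, Vldlr, Apod and Lpl. At E18.5 it was Fabp7, Apoe, Lrp1, Fabp5, Lrp8, Abca1, Apod, Vldlr, Sorl1 and Lpl. Whether neighbours in this order differ beyond their spread cannot be said without values of single libraries. Fabp5 and Lrp8 were nearly level at both ages, with ratios of 1.00 at E13.5 and at E18.5, and so were Abca1 and Apod (1.03) and Apod and Vldlr (1.08) at E18.5. The widest steps were those from Fabp7 to Lrp1 (4.15-fold) and from Apod to Lpl (4.56-fold) at E13.5, and from Sorl1 to Lpl (5.17-fold) at E18.5. In the top 10% of genes by level stood 4 members at E13.5 (Fabp7, Lrp1, Fabp5 and Lrp8) and 5 at E18.5, which included Apoe as well. Fabp5 and Lrp8 lay just inside at E13.5, both at percentile 90.4. The order depended on the length taken for each gene. With the longest transcript in place of all exons, the level of Lrp8 was 1.59-fold higher (38.4 at E13.5 and 54.2 at E18.5) and that of Apoe 1.52-fold higher (25.3 and 135), Lrp8 stood above Lrp1 (50.4) at E18.5, and Apod and Vldlr stood above Abca1 at E18.5. Fabp7 stayed highest and Apoe stayed next to it at E18.5. Fabp5 was then at 26.7 at E13.5 and 37.8 at E18.5, no longer level with Lrp8, and at percentile 87.4 at E13.5.

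Among the pathway genes described further on, the one most like each member in level over the 2 ages was Lrp11 for Lpl (distance 0.17 on the log2 scale), Crk for Lrp1 (0.24), Pltp for Sorl1 (0.35), Rapgef1 for Lrp8 and Fabp5 (0.41 each) and Reln for Vldlr (0.42) and Apod (0.74). The nearest gene to Apoe was Dbi at 1.19 and to Fabp7 was Fyn at 2.90, so that these members had no close match.

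By role, the 4 receptors together had 1140 CPM at E13.5 and 1396 at E18.5. The secreted carriers had 51.2 and 231, and the cytosolic carriers had 291 and 425. Of the secreted carriers' sum, Apoe made up 35.6 CPM at E13.5 and 190 at E18.5.

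**Figure D2:**
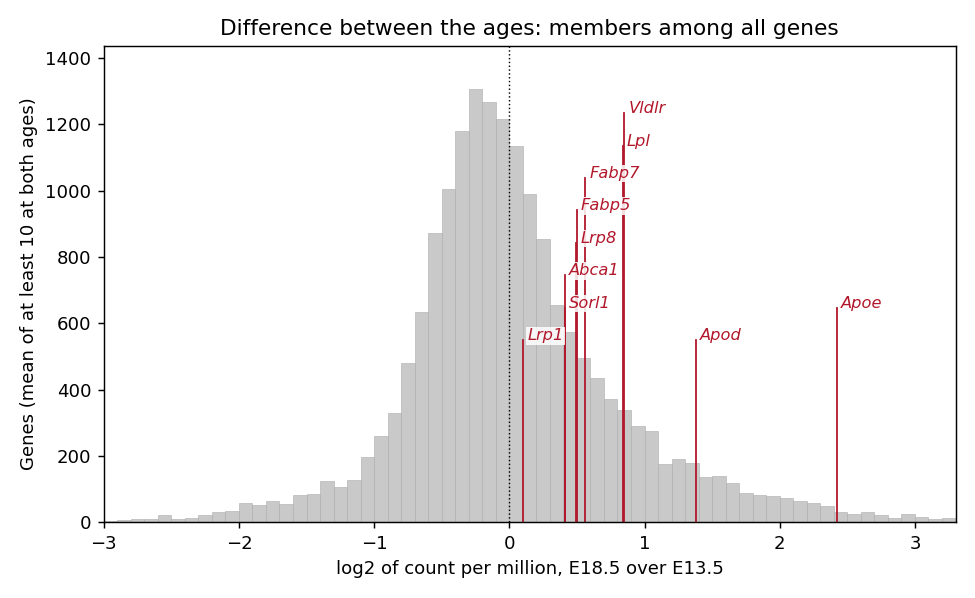
Histogram of the log2 ratio of CPM at E18.5 over E13.5 for genes with a mean of 10 or more at both ages (x axis shown from -3 to 3.3), with a line for each member whose height has no meaning. The members lie from 0.10 (Lrp1) to 2.42 (Apoe), all to the right of 0.

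The members were then set beside 82 other genes of lipoprotein and lipid transport in 10 lists. Of these, 67 had a mean of at least 10 at either age, 30 of them higher and 37 lower at E18.5, and their median difference was -0.09 on the log2 scale. A difference of at least 2-fold was seen for 10 higher and 5 lower genes. Of the higher ones, Fabp4 (mean count 2.84) and Pparg (4.10) were under the minimum of 10 at E13.5. They were counted only because their means at E18.5 lay just above it, so that their direction follows from the filter. The share of 11.1% given above for all genes needed a mean of at least 10 at both ages, and these counts cannot be set against it. The members were chosen with earlier results of these data known, so that no test of the members against the pathway genes was made.

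The rest of the LDL receptor family was mostly lower at the later age, with 8 of its 11 genes lower (8 or 9 under the other scalings) and a median of -0.35 on the log2 scale. Lrp2 encodes megalin, an endocytic receptor of absorptive epithelia and of the early neuroepithelium, and it had a mean normalized count of 1310 at E13.5 and 253 at E18.5 (log2 difference -2.15). Lrp1b, a large relative of Lrp1, went the other way, with 604 and 1664 (log2 difference 1.68). Lrp3 and Lrp12 had the highest levels of this list. The level of Lrp3 was 25.4 CPM per kilobase at E13.5 and 24.2 at E18.5, against 24.2 and 34.2 for Lrp8, and Lrp12 had mean normalized counts of 3274 and 2212. Among the sorting receptors related to Sorl1, Sort1 (sortilin) had a level of 33.4 at E13.5 and 25.1 at E18.5, above Sorl1 at both ages. Sorcs1 had 4.09 and 6.50, and Sorcs3 had 4.18 and 5.85, both higher at E18.5 as Sorl1 was, while Sorcs2 had 6.87 and 5.55.

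**Figure D3:**
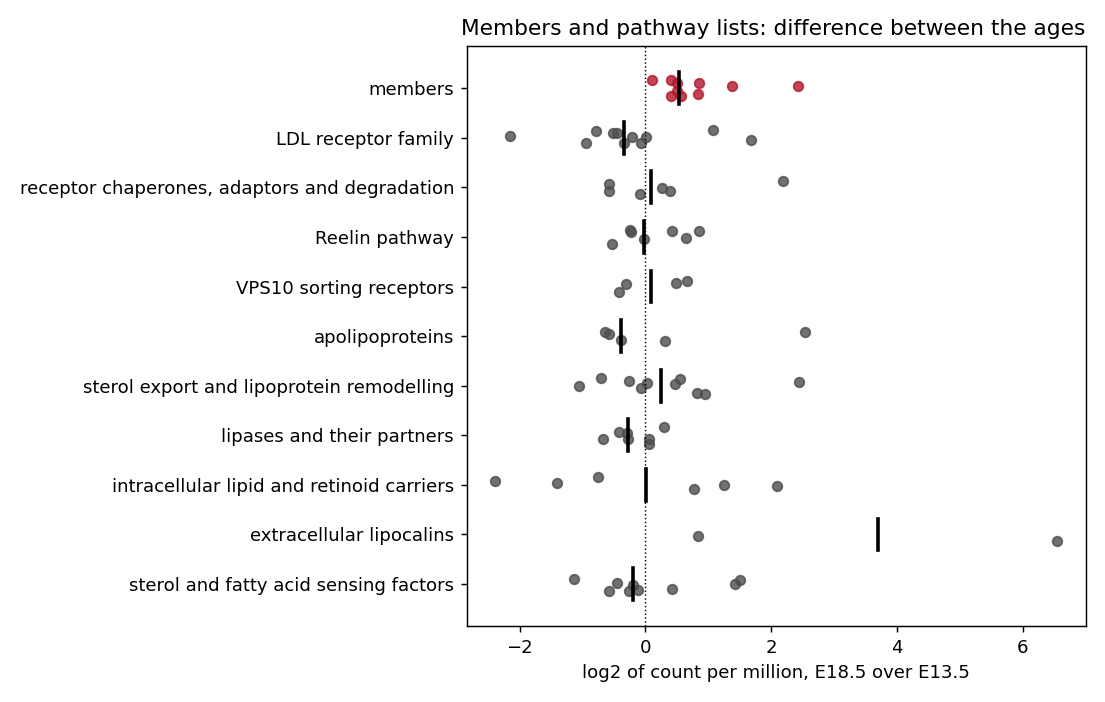
Log2 ratio of CPM at E18.5 over E13.5 for the members (top row) and 10 pathway lists, 1 point per gene with a mean of at least 10 at either age, with small vertical jitter. Vertical bars are medians, 0.53 for the members and -0.35 for the rest of the LDL receptor family, and the point at 6.55 is Ptgds.

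Genes that serve the receptors included 3 higher and 3 lower ones. Lrpap1, a chaperone that keeps ligands off the receptors while they fold, had a mean normalized count of 1588 at E13.5 and 1642 at E18.5 (log2 difference 0.27). Snx17, which returns LRP1 to the cell surface, had 1762 and 1012 (-0.58).

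In the Reelin pathway, the ligand and the adaptor were higher at E18.5 together with both receptors. Reln, the ligand, had a mean normalized count of 6741 at E13.5 and 10459 at E18.5 (log2 difference 0.85), close to that of Vldlr (0.85). Dab1, the adaptor that binds the receptor tails, had 3935 and 5318 (0.65). Fyn, the kinase that phosphorylates DAB1, had 5198 and 5958 (0.42). Crk and Crkl, the adaptors downstream of DAB1, had log2 differences of -0.24 and -0.53. Of the 7 genes of this list 3 were higher and 4 lower, and none differed 2-fold. Rapgef1, at -0.03, took either direction with the scaling.

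Of the 10 other apolipoproteins 5 had means under 10 at both ages. Clu, which encodes clusterin, also called apolipoprotein J, had a mean normalized count of 354 at E13.5 and 1758 at E18.5 (log2 difference 2.53), near that of Apoe (2.42). Its level was 3.61 and 20.8 CPM per kilobase. Apoa2 and Apom were low at both ages, with mean counts of 10.1 and 15.5 at E18.5 and log2 differences of -0.58 and -0.64.

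Lcat, the enzyme that esterifies the cholesterol of lipoproteins, had a mean normalized count of 18.2 at E13.5 and 85.3 at E18.5 (log2 difference 2.44). Among the transporters related to Abca1, Abca7 had 1091 and 454 (log2 difference -1.05), while Abca2 and Abca3 had differences of 0.55 and 0.48. Npc2, which carries cholesterol in lysosomes, had 2442 and 1293 (-0.70). In this list 6 of 10 genes were higher at E18.5, and 5 to 7 were under the other scalings.

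Of the 7 lipase genes with a mean of at least 10, 3 were higher and 4 lower at E18.5, with none 2-fold apart and only 1 higher with the means as deposited. Lpl (log2 difference 0.84) exceeded each of them. Lipa and Pnpla2, which act inside cells, had differences of 0.05 and 0.30. Lipg, the endothelial lipase most like LPL, had -0.42, and Angptl4, a secreted inhibitor of LPL, had -0.68.

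Crabp1 and Crabp2, retinoic acid carriers of the same protein family as Fabp5 and Fabp7, went the other way. Crabp1 had a mean normalized count of 1175 at E13.5 and 380 at E18.5 (log2 difference -1.41) and Crabp2 had 838 and 137 (-2.39). At E13.5 the level of Crabp1 was 51.3 CPM per kilobase, above that of Fabp5 (24.3), and at E18.5 it was 19.3, below that of Fabp5 (34.3). Dbi, which binds acyl-CoA, was higher at E18.5, with a level of 32.8 and 55.8.

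Ptgds, a brain lipocalin of the same superfamily as Apod, differed most of the pathway genes. It had a mean normalized count of 65.2 at E13.5 and 5240 at E18.5, a log2 difference of 6.55. Its level at E18.5, 129 CPM per kilobase, lay between those of Fabp7 and Apoe. Rbp4 was low at both ages, with mean counts of 14.9 and 22.7.

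Among the factors that control these genes, 6 of 9 were lower at E18.5. Srebf2, the activator of cholesterol synthesis, had the highest level, 52.3 CPM per kilobase at E13.5 and 45.6 at E18.5. Rxrb had a level of 13.6 and 9.90. Nr1h2, which encodes the sterol sensor LXR beta, had a mean normalized count of 1068 at E13.5 and 612 at E18.5, and Nr1h3, which encodes LXR alpha, had 30.5 and 35.0. Abca1 and Apoe are known targets of both receptors. Ppara, a fatty acid sensor, was low, with mean counts of 19.1 and 44.2, and its relative Pparg was at 4.10 at E13.5 and 2.84-fold higher in CPM at E18.5.

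Marker genes of the cell types that a whole brain can hold were read at both ages, since the levels of the members come from whole brains. Neuron markers had the highest sum of the 10 lists, 6150 CPM at E13.5 and 7816 at E18.5. Such a sum depends on which genes were listed, so that it does not rank the cell types. The radial glia markers summed to 1627 CPM at E13.5 and 796 at E18.5, and 5 of the 6 were lower at the later age. Nes was at 13679 and 2548 and Vim at 21755 and 6157 mean normalized counts, while Slc1a3, which astrocytes keep, was at 3840 and 7489. Sox2, Pax6 and Hes5 were lower as well, with log2 differences of -0.91, -0.57 and -1.48. Fabp7 was 1.48-fold higher at E18.5, in the direction of Slc1a3 alone among these markers, and which cells held Fabp7 was not tested.

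Of the 6 astrocyte markers 5 were higher at E18.5, with Gfap at 4.71 and 501 and Aqp4 at 92.8 and 2112 mean normalized counts, and the list summed to 595 and 740 CPM. Most of this sum was Slc1a2 (450 and 414 CPM), the only marker of the list that was lower at E18.5. By qPCR, the paper reported Gfap as up-regulated in Dio3-/- brains at E18.5. The choroid plexus markers summed to 237 and 572, most of it Ttr, though Otx2 and Clic6 were lower at E18.5, and microglia markers to 42.5 and 57.2. Oligodendrocyte lineage markers summed to 142 and 270, with 6 of 6 higher at E18.5. Leptomeninges and mesenchyme markers summed to 815 and 516, with 4 of 6 lower at E18.5 and Dcn and Ogn higher. Endothelium markers summed to 262 and 314, with 3 of 6 higher and 3 lower (2 higher with the means as deposited). Erythroid markers summed to 978 and 119, with 6 of 6 lower, and most of the sum at E13.5 was the embryonic globin Hbb-y (751 CPM, and 0.324 at E18.5). Markers of liver, the main source of plasma apolipoproteins, summed to only 10.6 and 5.75. The part of each cell type in the levels of the members was not tested, and more cells of a type and more RNA per cell cannot be told apart in whole brains.

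**Figure D4:**
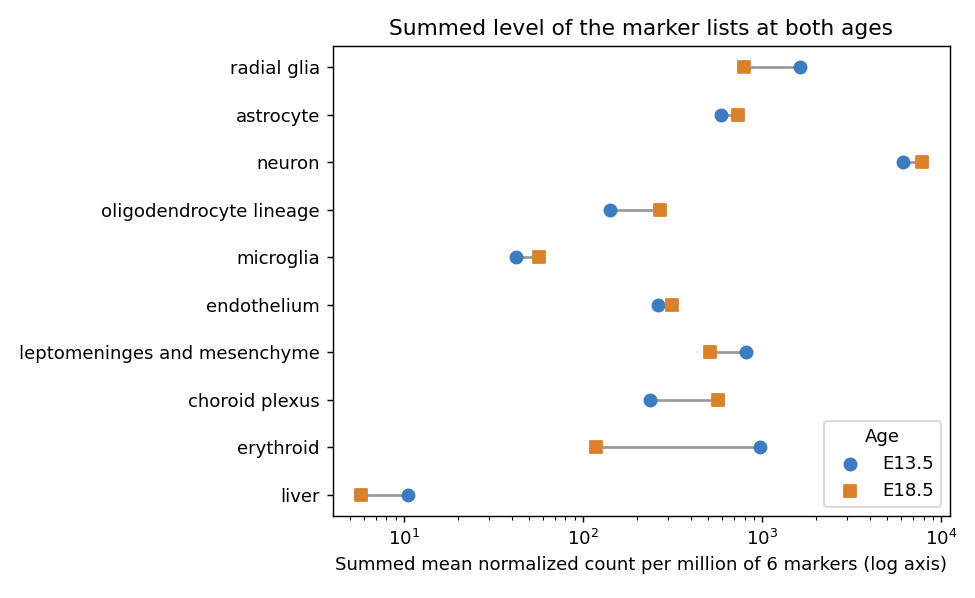
Summed CPM of the 6 markers of each cell type (log axis) at E13.5 (circles) and E18.5 (squares), with no error available. Radial glia markers are at 1627 and 796, astrocyte markers at 595 and 740 and choroid plexus markers at 237 and 572.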

How the data were processed

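The authors sequenced rRNA-depleted RNA of individual brains in 2 batches, trimmed the reads with cutadapt 3.1, aligned them with STAR 2.5.3a to GRCm38, counted them with HTSeq on GENCODE genes without strand, adjusted the counts between batches with ComBat-seq and ran DESeq2 1.30.1 within each age. The mean normalized count deposited for a gene is a signal, the average of size-factor-divided counts over every library of that age. Batch adjustment and normalization within each age can move every level. The depth of single libraries is unknown here. The 6 columns of the authors' own genotype comparison (fold changes, their errors, statistics, p-values and calls) were not used. The number of unused columns of per-sample values was 0.

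Means were scaled to CPM (a total of 1000000) within each table and divided by the union exon length of GENCODE M21, which 41897 genes matched, while the authors used the next release. Genes with a mean of at least 10 were ranked. Similar transcripts were searched with blastn 2.17.0 (at least 90% identity over at least 200 bases). The scaling was checked on the E13.5 means with known fold changes put in, and the ranks with the same length for every gene (Python 3.11.15, pandas 2.3.3). Division by gene length was therefore not checked. Promoter stretches came from RefSeq. Of several starts of a gene, the one with the fewest exon bases before it was taken, and Lpl and Fabp5 had no entry. The text names all members and, in each pathway list, the 2 genes with the highest level at each age and the 2 with the largest difference between ages, and for each member the pathway gene nearest in level. Crkl, Gpihbp1, Fabp3, the genes under 10 and the sensors Nr1h2 and Nr1h3 were added for their role after their values were seen. The members and lists were chosen with earlier results of these data known.

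The planned genotype test needed values per library and was not made. Some listed genes are counted in their lists but not reported here by name.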

Additional observations from a re-analysis of the deposited data

How the results depend on the processing

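The 10 members were compared between the ages under 4 other scalings: the means as deposited, the median of the ratios, the total of protein-coding genes without mitochondrial genes, and the total without the 1% of genes with the highest mean. Of 40 member values, 39 kept their direction, and Lrp1 turned to -0.12 on the log2 scale with the means as deposited, where the median of all genes was -0.28. With these means 9 of the 10 members were higher at E18.5, and 10 were under each of the other scalings. Apoe and Apod alone were at least 2-fold apart under every scaling. Between 26 and 32 of the 67 pathway genes were higher at E18.5 under the scalings, as were 24 of 58 with a mean of at least 50 and 37 of 78 with any value above 0. In the top 10% by level at E13.5, 2 members remained in place of 4 when a mean of at least 50 was required and also when only protein-coding genes were ranked (Fabp7 and Lrp1). At E18.5 between 5 and 7 members were in the top 10% under the settings tried. No paired analysis was possible because the columns hold means over all libraries of an age. For the same reason no library could be left out, and the error of each level is unknown.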
